A study of Mus musculus with 50 samples.

Results

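A set of 10 genes of the integrated stress response was followed in mouse splenic CD8+ T cells through the first 24 hours of activation: Atf4, Atf5, Cebpg, Ddit3, Chac1, Trib3, Sesn2, Ddit4, Asns and Nupr1. They were taken by symbol from a table of raw counts that holds 21647 Ensembl genes, and all 10 were found and passed the filter on low counts. The libraries came from 10-week-old mice of the strain background that the labels spell C567BL/6J, either wild type (WT) or from a knockout line (KO), with 5 mice per genotype. Cells were isolated from spleen with anti-CD8a beads and were sequenced without activation (0h) or after 2, 6, 12 or 24 hours on plate-bound anti-CD3e with soluble anti-CD28, which gave 50 libraries. Every mouse contributed a library at each time, so the mouse number marks the same animal over time within a genotype and pairs nothing between genotypes. All groups share this background, tissue and isolation.

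The integrated stress response starts when a kinase such as PERK, GCN2 or PKR phosphorylates the initiation factor eIF2, which slows general translation and favours translation of the Atf4 mRNA. ATF4 is a basic leucine zipper transcription factor that pairs with relatives such as C/EBPγ and turns on genes for amino acid uptake, amino acid synthesis and transfer RNA charging. It also turns on genes that limit the response or promote cell death. Because ATF4 is controlled largely at translation, its mRNA level does not give its protein level. In activated T cells the pathway is known for the supply of amino acids to growing cells.

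Library totals ran from 9571625 to 31293872 counts with a median of 23548632. The libraries of WT mice 1 and 4 stood apart from the rest. At 0h, 7 immature thymocyte genes such as Rag1 and Dntt summed to 1692 and 1268 CPM (counts scaled by library size to a common total) in these mice, against 52.1 to 87.8 in WT mice 2, 3 and 5 and 39.6 to 116 in KO mice. The sum over 12 genes of G2 and mitosis was 6172 and 4972 CPM in them, against 119.7 to 185 in the other WT mice and 289 to 1113 in KO mice. The CD8 T cell markers Cd3e, Cd3d, Cd3g, Cd8a, Cd8b1 and Trac were detected in every group, with 0h sums of 2059 and 2675 CPM in WT mice 1 and 4, beside 5695 to 15790 in the other WT mice. WT results are therefore given with all 5 mice and without mice 1 and 4, the second added after the data were seen. Leaving out these mice also narrows the spread that all groups share in the fit, so some KO results gain a call. The library of WT mouse 3 at 0h also differed, with 23.8% of its counts in its 50 most abundant genes against 12.3% or less in the libraries other than it and KO mouse 3 at 0h, which had 14.8%. In bulk samples, fewer cells of a type and less RNA per cell cannot be told apart.

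By the GENCODE M21 annotation of GRCm38, the members lie on 6 chromosomes and all are protein coding. The transcription factor genes were Atf4 at chr15:80255184-80257541 on the plus strand, Atf5 at chr7:44812256-44816658 on the minus strand, Cebpg at chr7:35046422-35056573 on the minus strand and Ddit3 at chr10:127290774-127296288 on the plus strand. The others were Chac1 at chr2:119351229-119354381 on the plus strand, Trib3 at chr2:152337422-152344032, Asns at chr6:7675169-7693254, Sesn2 at chr4:132492032-132510501, Ddit4 at chr10:59949669-59951834 and Nupr1 at chr7:126623249-126630861, all 5 on the minus strand. Exons of Ddit3 share 68 bases, 3.97% of its exon length, with Mars on the opposite strand, and those of Atf5 share 82 bases, 4.114%, with Nup62 and Il4i1 on the opposite strand. The strand setting of the counting is not given in the sources used here, so reads from these stretches cannot be assigned to 1 gene.

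ATF4 dimers are known to bind composite C/EBP-ATF elements, so the promoters were searched for the core TGATGNAA and its reverse complement TTNCATCA, on both strands, from 250 bases before to 50 bases after each RefSeq start (GRCm38.p6). All 10 members matched a RefSeq promoter, Atf5 with 2 windows. The core was found for 4 of the 10 members, Chac1, Trib3, Asns and Nupr1, and in 3.97% of 32851 windows of the same length, or 4.51% of 27025 genes. The stretches that hold it are shown because Chac1, Trib3 and Nupr1 had the lowest levels of the set before activation and Asns split the WT mice. Each is written 5′ to 3′ along the gene, with the match in capitals. For Chac1, Asns and Nupr1 the 250 bases before the start are given, and for Trib3 30 bases around a match that lies inside the RefSeq transcript. The RefSeq starts differ from the ends of the GENCODE spans given above, which cover all transcripts of a gene. The Trib3 match lies outside its GENCODE span, and those of Asns and Nupr1 lie inside theirs.

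Chac1: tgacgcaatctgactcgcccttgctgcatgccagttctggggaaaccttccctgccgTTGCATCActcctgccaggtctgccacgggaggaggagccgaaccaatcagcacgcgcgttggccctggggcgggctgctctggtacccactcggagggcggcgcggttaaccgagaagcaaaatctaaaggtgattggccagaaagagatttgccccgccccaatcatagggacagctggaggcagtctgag

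Trib3: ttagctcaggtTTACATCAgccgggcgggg

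Asns: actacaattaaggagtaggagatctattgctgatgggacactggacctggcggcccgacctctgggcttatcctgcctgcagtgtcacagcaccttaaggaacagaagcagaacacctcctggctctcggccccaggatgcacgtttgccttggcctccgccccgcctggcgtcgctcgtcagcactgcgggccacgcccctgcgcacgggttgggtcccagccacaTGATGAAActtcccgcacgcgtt

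Nupr1: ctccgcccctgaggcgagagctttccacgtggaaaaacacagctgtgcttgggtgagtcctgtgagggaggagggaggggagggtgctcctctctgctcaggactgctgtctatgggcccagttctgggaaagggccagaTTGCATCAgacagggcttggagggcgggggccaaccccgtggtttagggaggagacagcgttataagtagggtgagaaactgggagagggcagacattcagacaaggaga

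These stretches are chr2:119350992-119351241 on the plus strand for Chac1, and chr2:152344028-152344057, chr6:7693210-7693459 and chr7:126625471-126625720 on the minus strand for Trib3, Asns and Nupr1. Counted from the RefSeq start, the match begins 193 bases before it in Chac1, 110 bases before it in Nupr1 and 23 bases before it in Asns, and at position 15 of the RefSeq transcript in Trib3. It reads along the gene as TGATGAAA in Asns, and along the opposite strand as TGATGCAA in Chac1 and Nupr1 and as TGATGTAA in Trib3. A match describes the letters and is not a measured binding site.

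Atf4 was the most abundant member in every group. Per kilobase of exon, its mean level ran from 85.3 CPM in WT cells at 0h to 236 CPM in KO cells at 6h, and its range never overlapped that of the next gene. Before activation the next was Ddit4, at 44.9 CPM per kilobase in WT and 48 in KO cells, and the lowest were Nupr1 at 0.155 and 0.202 and Chac1 at 0.116 and 0.166. The ranges of Nupr1 and Chac1 overlapped in both genotypes at 0h, so their order is not resolved. Between these ends, Ddit3, Cebpg, Atf5 and Asns overlapped their neighbours at 0h in both genotypes. By 24h in KO cells Asns was the second highest, at 20.9 CPM per kilobase, with a range that overlapped that of Ddit4 at 18.8, while in WT cells it was the fourth at 9.92.

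**Figure D1:**
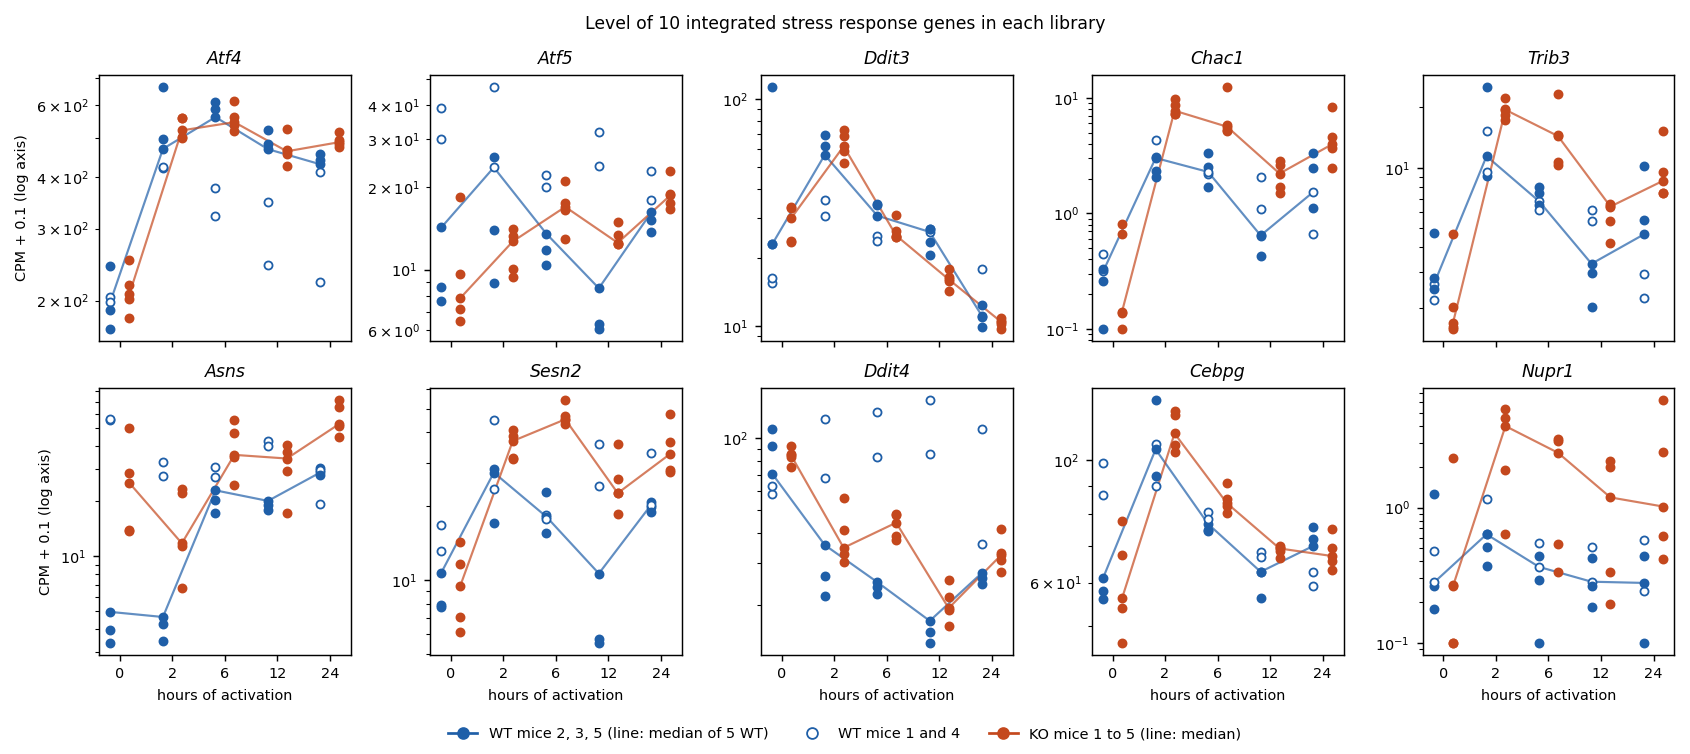
Level of each member in every library, in CPM plus 0.1 on a log axis, against hours of activation; WT and KO libraries have separate colours, and WT mice 1 and 4 are open symbols. Chac1 climbs from at most 0.712 CPM at 0h to between 1.95 and 9.71 CPM at 2h, while Asns and Ddit4 split the open WT symbols from the filled ones.

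Most member calls after activation were higher than at 0h. Ddit4 was lower in KO cells at 12h and 24h, and Ddit3 was higher in KO cells at 2h and lower in them at 12h and 24h and in WT cells at 24h. Changes are log2 differences in expression tested by quasi-likelihood in edgeR, with p-values adjusted by Benjamini-Hochberg over 13294 genes and a threshold of 0.05. In WT cells at 2h, 5 of 10 members were higher and 0 lower, where 14% and 16.2% of all genes tested were called higher and lower. The WT counts were 3 higher and 0 lower at 6h (background 20.2% and 19.7%), 2 and 0 at 12h (19.3% and 20.2%), and 3 and 1 at 24h (19.9% and 24.2%). KO cells had 7 higher and 0 lower at 2h (background 20.3% and 19.6%), 5 and 0 at 6h (26.8% and 22.4%), 4 and 2 at 12h (27.8% and 25%), and 5 and 2 at 24h (30.7% and 28%). The WT shares at 6, 12 and 24h were near or below these backgrounds. Without WT mice 1 and 4 the WT counts were 5 higher and 1 lower at 2h (background 49.7%), 6 and 1 at 6h (59.8%), 2 and 2 at 12h (60.2%) and 6 and 2 at 24h (64.6%). The KO counts in that fit were 7 and 2 at 2h (background 57.6%), 6 and 1 at 6h (64.6%), 4 and 2 at 12h (67.1%) and 6 and 2 at 24h (71.2%), as higher and lower. With the mouse as a block, since each mouse gave a library at every time, the number called was 5 in WT cells at 6h (47.8% of genes) and 7 at 24h (55%), and 8 in KO cells at 6h (58.9%).

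At 2, 6, 12 and 24h the median log2 change of the 10 members in KO cells was 1.23, 1.09, 0.74 and 1.17, beside -0.08, -0.04, -0.03 and 0.02 over all genes. In WT cells it was 0.59, 0.01, -0.01 and 0.02, beside -0.08, -0.05, -0.09 and -0.08. When WT mice 1 and 4 were left out, the WT medians were 0.77, 0.73, -0.30 and 0.83. The comparisons of a genotype share its 0h libraries. When libraries were scaled by their totals, this moved the median of all genes in KO cells from -0.08 to -0.25 at 2h.

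Atf4, the transcription factor at the centre of the response, was raised at every time after activation in both genotypes. Its level at 0h was 204, 170.3, 243, 199 and 189 CPM in WT mice 1 to 5 and 181, 218, 251, 207 and 202 CPM in KO mice 1 to 5. The 2h libraries had 422, 469.7, 667, 423 and 496 CPM in WT mice and 499.5, 558, 521, 503 and 559.5 CPM in KO mice. All 2h libraries lay above all 0h libraries of both genotypes, and WT mouse 3 was the highest. The log2 change at 2h was 1.30 (SE 0.173, adjusted p = 1.97e-07) in WT and 1.32 (SE 0.173, adjusted p = 5.96e-08) in KO cells.

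Atf4 then stayed near this level in KO cells, with 519 to 615 CPM for the 6h libraries, 428 to 524 for 12h and 474 to 515 for 24h. In WT cells at 24h it was 222, 440.3, 430.5, 413 and 457 CPM in mice 1 to 5. WT mouse 1 was near its 0h value and the other 4 mice were at about the KO level but below all KO mice. The log2 change at 24h was 0.96 (SE 0.172, adjusted p = 1.97e-05) in WT and 1.21 (SE 0.172, adjusted p = 2.03e-07) in KO cells. All 8 changes of Atf4 from 0h kept their call without WT mice 1 and 4, with WT changes of 1.43, 1.54, 1.24 and 1.14 at the 4 later times. None of the steps between consecutive later times passed the test for Atf4, with log2 steps from -0.25 to 0.07, and unadjusted p under 0.05 was reached by 0 of 6 steps.

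Cebpg, which encodes the partner C/EBPγ, rose early and returned towards its 0h level. In KO mice 1 to 5 it was 46.6, 56.1, 77.5, 53.8 and 67.2 CPM at 0h and 121, 123, 112, 107 and 103 CPM at 2h. The 2 sets did not overlap, and the log2 change was 0.91 (SE 0.122, adjusted p = 9.61e-08). In WT mice it was 98.6, 56, 61.1, 86.4 and 57.9 CPM at 0h and 107, 93.6, 128, 89.7 and 105 CPM at 2h, with a change of 0.54 (SE 0.121, adjusted p = 0.000638). WT mice 1 and 4 already had the highest 0h values, of which that of mouse 1 lay within the 2h range, and without them the change was 0.89 (adjusted p = 2.71e-07). From 2h to 6h Cebpg fell by 0.42 on the log2 scale in KO (adjusted p = 0.00404) and by 0.45 in WT cells (adjusted p = 0.0041). In KO cells at 6h it was still above 0h by 0.49 (adjusted p = 0.000919), or 0.32 (adjusted p = 0.0475) with libraries scaled by their totals.

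Ddit3 encodes CHOP, a C/EBP family factor tied to cell death after prolonged stress. It showed a short peak in KO cells, with 32.8, 23.4, 33.3, 29.7 and 23.6 CPM at 0h, 73.1, 58.6, 68.5, 61.7 and 51.9 CPM at 2h and 9.61, 10.7, 10.4, 10.1 and 10.3 CPM at 24h in mice 1 to 5. Every KO library at 2h lay above, and every library at 24h below, all KO libraries at 0h. The log2 change in KO cells was 1.14 (SE 0.305, adjusted p = 0.00266) at 2h, -0.84 (adjusted p = 0.0191) at 12h and -1.48 (adjusted p = 8.97e-05) at 24h. The 12h call was lost without KO mouse 1, 3 or 4, with adjusted p of 0.0617 to 0.0762. From 2h to 6h Ddit3 fell by 1.26 in KO cells (adjusted p = 0.000767).

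WT mice 1 to 5 had 15.4, 22.8, 113, 16.1 and 22.9 CPM of Ddit3 at 0h, 30.3, 62, 69.5, 35.9 and 56.5 CPM at 2h and 17.8, 9.78, 12.2, 10.9 and 10.9 CPM at 24h. Mice 1, 2, 4 and 5 were higher at 2h than at 0h, and mouse 3 was lower. The WT change at 2h was 0.42 (adjusted p = 0.319) with all mice and 1.28 (adjusted p = 7.03e-06) without mouse 3, and in limma-voom with all mice it was 1.00 (adjusted p = 0.0013). At 24h Ddit3 had fallen by 1.62 (adjusted p = 5.54e-05) with all WT mice and by 2.26 (adjusted p = 2.23e-07) without mice 1 and 4. Without mouse 3 this change was -0.67 (adjusted p = 0.00593) in edgeR, in limma-voom with all mice it was -0.97 (adjusted p = 0.00582), and mouse 1 was higher at 24h than at 0h. The WT steps from 2h to 6h, -0.79 (adjusted p = 0.0452), and from 12h to 24h, -0.99 (adjusted p = 0.0221), each lost their call when single mice were left out, to adjusted p of up to 0.118 and 0.116. The first was lost without WT mouse 2, 4 or 5 or any single KO mouse, and the second without WT mouse 2, 4 or 5.

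Atf5, an ATF4 relative that is also under translational control and is linked to mitochondrial stress, was called at 24h in KO cells. In KO mice it was 6.41, 7.76, 18.3, 9.56 and 7.1 CPM at 0h and 22.9, 18.7, 18.6, 16.5 and 17.5 CPM at 24h, and KO mouse 3 at 0h overlapped the 24h range. The log2 change was 0.94 (SE 0.401, adjusted p = 0.0409), and the call was lost without KO mouse 1, 2, 4 or 5, with adjusted p of 0.0827 to 0.175. At 6h the KO change was 0.79 (adjusted p = 0.098), and with the mouse as a block it was 0.82 (adjusted p = 0.00536). In WT mice Atf5 at 0h was 39, 8.57, 14.2, 30.0 and 7.54 CPM, highest in mice 1 and 4, and no WT change from 0h passed the test with or without these mice.

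Chac1, an enzyme that breaks down glutathione, had the largest fitted log2 changes from 0h among the members at 2h. At 0h its level was 0.342, 0.162, 0, 0.215 and 0.233 CPM in WT mice 1 to 5 and 0.712, 0.0415, 0, 0.565 and 0.0384 CPM in KO mice 1 to 5, or 0 to 18 counts per library. The 2h libraries had 4.26, 1.95, 2.24, 2.99 and 2.92 CPM in WT mice and 8.56, 7.12, 9.71, 7.65 and 7.11 CPM in KO mice. Every 2h library lay above every 0h library, and the KO libraries at 2h were all above the WT ones. The log2 change at 2h was 3.79 (SE 0.625, adjusted p = 9.21e-06) in WT and 4.81 (SE 0.643, adjusted p = 9.01e-08) in KO cells, and these sizes rest on few counts at 0h.

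The change of Chac1 from 0h was smallest at 12h in both genotypes. The KO change from 0h was 4.56 at 6h, 2.87 at 12h and 3.99 at 24h, and the WT change was 3.47, 2.08 and 3.06, all past the threshold. Fitted without WT mice 1 and 4, the 12h change in WT cells was 1.52 (adjusted p = 0.0948). In that fit Chac1 fell from 6h to 12h by 2.38 (adjusted p = 0.00734) and rose from 12h to 24h by 2.26 (adjusted p = 0.00612) in WT cells. WT libraries at 12h were 1.96, 0.543, 0.545, 1 and 0.325 CPM, with mice 1 and 4 the highest.

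Trib3, a pseudokinase that binds ATF4 and limits its activity, followed a similar course. In KO mice 1 to 5 it was 1.46, 1.91, 4.56, 1.49 and 1.57 CPM at 0h, 19.4, 22.2, 19.6, 17.1 and 18.2 CPM at 2h and 10.2, 14.4, 23.2, 14.3 and 10.6 CPM at 6h. In WT mice it was 2.53, 2.39, 4.62, 2.08 and 2.72 CPM at 0h, 15.1, 9.04, 25.3, 9.39 and 11.3 CPM at 2h and 6.71, 6.43, 7.92, 6.04 and 7.35 CPM at 6h. All 2h and 6h libraries lay above all 0h libraries of both genotypes. The log2 change at 2h was 2.30 (SE 0.359, adjusted p = 3.94e-06) in WT and 3.14 (SE 0.371, adjusted p = 5.97e-09) in KO cells.

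Trib3 stayed above 0h in KO cells at each later time, by 2.74 (adjusted p = 7.86e-08) at 6h, 1.39 (adjusted p = 0.00102) at 12h and 2.13 (adjusted p = 3.56e-06) at 24h. In WT cells it was above 0h at 6h by 1.27 (adjusted p = 0.0032), while the changes at 12h and 24h were 0.44 (adjusted p = 0.321) and 0.82 (adjusted p = 0.0516), the second 0.86 (adjusted p = 0.0249) with the mouse as a block. With WT mice 1 and 4 left out, the 12h value was -0.30 (adjusted p = 0.54) and the 24h value 1.08 (adjusted p = 0.0175). Between consecutive times Trib3 fell from 2h to 6h in WT cells, -1.02 (adjusted p = 0.0207), and from 6h to 12h in KO cells, -1.35 (adjusted p = 0.0239). The first call was lost without WT mouse 3 (adjusted p = 0.102) and the second without any 1 KO mouse (adjusted p of 0.0732 to 0.172).

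Sesn2 encodes sestrin 2, a leucine sensor that holds back mTORC1. In KO mice 1 to 5 it was 6.01, 9.34, 14.2, 6.98 and 11.5 CPM at 0h and 46.6, 44.8, 54, 45.1 and 43.2 CPM at 6h. In WT mice it was 16.7, 7.66, 10.6, 13 and 7.82 CPM at 0h and 18.2, 18, 22.7, 17.6 and 15.4 CPM at 6h. The KO ranges were far apart, and the WT ranges overlapped through mouse 1. The log2 change in KO cells was 1.90 (SE 0.332, adjusted p = 1.24e-05) at 2h and 2.29 (SE 0.337, adjusted p = 4.78e-07) at 6h, and it was still 1.38 at 12h and 1.84 at 24h, both past the threshold.

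In WT cells Sesn2 rose at 2h by 1.33 (adjusted p = 0.00161) and at 24h by 1.01 (adjusted p = 0.0105), and the 6h change was 0.72 (adjusted p = 0.0723), or 0.83 (adjusted p = 0.00904) with the mouse as a block. At 12h WT mice 1 to 5 had 35.9, 5.43, 10.5, 24.2 and 5.63 CPM, with mice 1 and 4 above the other 3. Without these mice the WT change was 1.11 (adjusted p = 0.000752) at 6h and -0.31 (adjusted p = 0.349) at 12h, and the drop from 6h to 12h and the rise from 12h to 24h were -1.42 (adjusted p = 0.000274) and 1.50 (adjusted p = 5.65e-05).

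Ddit4, which encodes the mTORC1 inhibitor REDD1, fell during activation in KO cells. KO mice 1 to 5 had 75.7, 84.5, 92.2, 85.9 and 83 CPM at 0h and 16.2, 21.4, 25.2, 19 and 19.3 CPM at 12h, with no overlap. The log2 change was -2.06 (SE 0.515, adjusted p = 0.0009) at 12h and -1.35 (SE 0.504, adjusted p = 0.0197) at 24h, and at 2h and 6h it was -1.11 (adjusted p = 0.0724) and -0.96 (adjusted p = 0.106). The 2h and 6h changes with the mouse as a block were -1.12 (adjusted p = 0.0049) and -0.96 (adjusted p = 0.0115). The 24h call was lost without KO mouse 2, 3, 4 or 5, with adjusted p of 0.0558 to 0.0711. All 5 KO mice were lower at each later time than at 0h.

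WT mice disagreed on Ddit4. They had 58, 109, 70.8, 63.2 and 93 CPM at 0h and 144, 13.8, 17.1, 85.4 and 15.3 CPM at 12h. Mice 1 and 4 were higher at 12h than at 0h, and mice 2, 3 and 5 were lower. With all WT mice no change from 0h passed the test, with values from -0.82 to -0.48. Every change passed it with the mouse as a block and all WT mice, at -1.14 (adjusted p = 0.00691) at 2h, -1.18 (adjusted p = 0.00425) at 6h, -1.40 (adjusted p = 0.00116) at 12h and -1.39 (adjusted p = 0.000744) at 24h. Without mice 1 and 4 Ddit4 fell at every time, by 1.73, 1.96, 2.61 and 1.82 at 2, 6, 12 and 24h, with adjusted p of at most 5.31e-09. In the same fit the KO changes at 2h and 6h, -1.14 and -0.99, were also called.

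Asns encodes asparagine synthetase, which makes asparagine from aspartate and glutamine. At 0h WT mice 1 to 5 had 55.4, 3.27, 3.85, 56 and 4.86 CPM and at 24h 19.3, 30.2, 28.7, 29.6 and 27.8 CPM. Mice 1 and 4 began far above the other 3 and ended near or below them. With all WT mice no change from 0h passed the test, with values from -0.77 to 0.17, while with the mouse as a block the 24h change was 1.11 (adjusted p = 0.0422) and the step from 2h to 6h 1.32 (adjusted p = 0.0193). Without mice 1 and 4 the change was -0.0048 (adjusted p = 0.996) at 2h, 2.32 (adjusted p = 8.37e-06) at 6h, 2.19 (adjusted p = 1.91e-05) at 12h and 2.85 (adjusted p = 2.73e-07) at 24h.

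KO mice 1 to 5 had 13.7, 13.9, 25.1, 28.3 and 50.0 CPM of Asns at 0h, 23.3, 6.63, 11.7, 11.3 and 22.1 CPM at 2h and 65.6, 45.1, 71.2, 52.9 and 51.7 CPM at 24h. The 0h and 24h ranges overlapped through mouse 5, which was the highest of the KO mice at 0h. The KO step from 2h to 6h was 1.39 (SE 0.58, adjusted p = 0.0479), a call lost when any 1 KO mouse was left out (adjusted p of 0.0559 to 0.191). The change from 0h to 24h was 1.13 (adjusted p = 0.0879) with all WT mice in the fit, 1.14 (adjusted p = 0.000826) without WT mice 1 and 4 and 1.23 (adjusted p = 0.0132) with the mouse as a block. The 0h sum of the G2 and mitosis genes was 1113 CPM in KO mouse 5 and 289 to 635 CPM in the other KO mice, and its part in the Asns level was not tested.

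Nupr1, a small chromatin-associated stress protein, was close to the detection limit in WT cells, at 0 to 1.16 CPM and at most 31 counts in any library. In KO mice 1 to 5 it was 2.21, 0.166, 0, 0.161 and 0 CPM at 0h and 4.48, 0.534, 5.26, 1.79 and 3.9 CPM at 2h. Each KO mouse was higher at 2h than at 0h, and mouse 2 was the lowest at 2h. The log2 change was 2.61 (SE 0.984, adjusted p = 0.0307), and the call was lost without KO mouse 3, 4 or 5 (adjusted p of 0.0747 to 0.131). It was 4.97 (adjusted p = 0.00152) without KO mouse 1 and 4.12 (adjusted p = 0.0013) in limma-voom. The changes at 6h and 24h, 1.82 (adjusted p = 0.114) and 1.99 (adjusted p = 0.0735), were 1.92 (adjusted p = 0.0223) and 1.97 (adjusted p = 0.0185) with the mouse as a block.

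**Figure D2:**
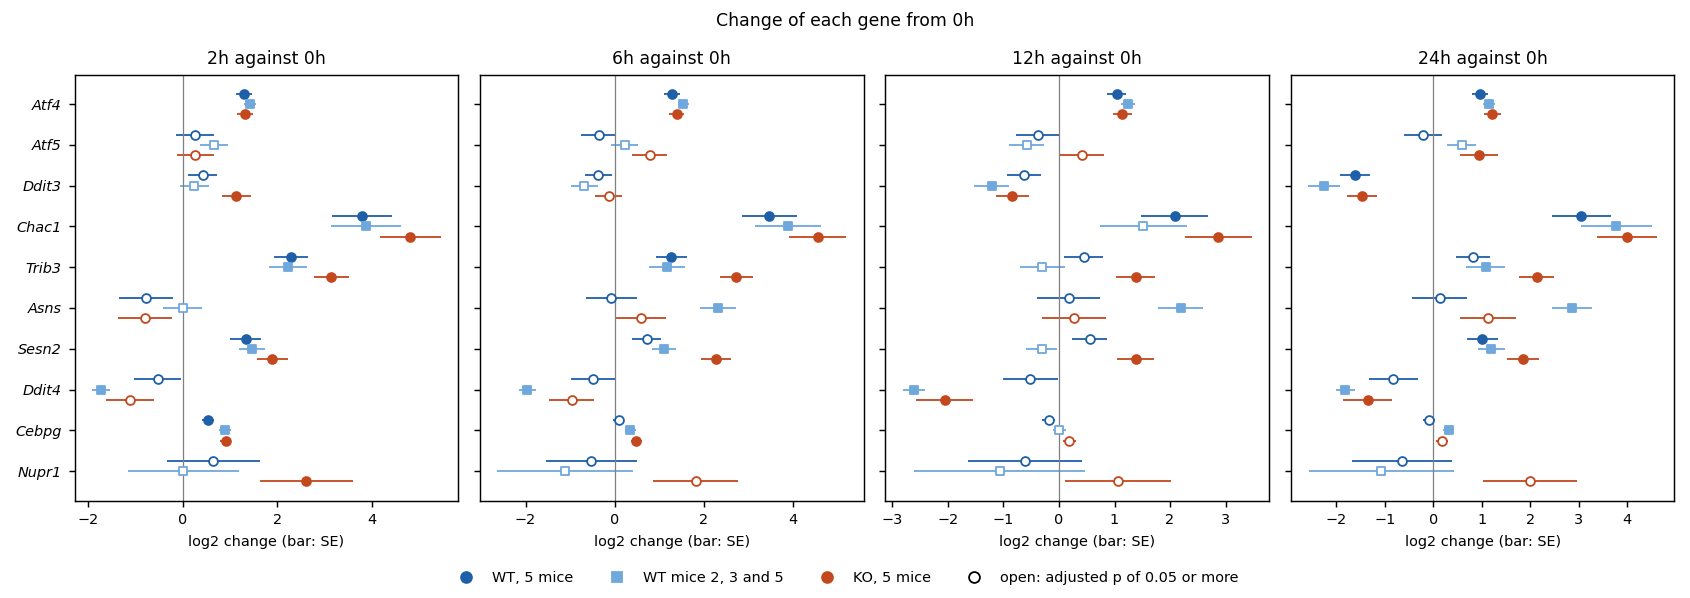
Log2 change of each member from 0h at 2, 6, 12 and 24h, as points with bars of 1 standard error, for all 5 WT mice, for WT mice 2, 3 and 5 and for all 5 KO mice; open symbols have an adjusted p of 0.05 or more. Atf4 and Chac1 lie to the right in every panel, and Asns and Ddit4 move when WT mice 1 and 4 are left out, for example from -0.52 to -2.61 for Ddit4 at 12h.

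The number of members called between consecutive later times depended on the fit. From 2h to 6h, 0 members were higher and 3 lower in WT cells (background 29.3%) and 1 was higher and 2 lower in KO cells (43.2%). From 6h to 12h the counts were 0 in WT cells (0.609%) and 1 lower in KO cells (2.86%). From 12h to 24h they were 1 lower in WT cells (15.1%) and 0 in KO cells (10%). The members named above, Ddit3, Trib3, Cebpg and Asns, made up these calls, and with the mouse as a block 4 members were called from 6h to 12h in KO cells (9.19% of genes), Trib3 and, with log2 steps of -1.64 (adjusted p = 0.0276), -0.92 (adjusted p = 0.0216) and -1.10 (adjusted p = 0.0296), Chac1, Sesn2 and Ddit4. With only the libraries compared in the fit, 8 members were called from 6h to 12h (49.1% of genes) and 6 from 12h to 24h (66.9%) in KO cells. Each of the 5 KO mice was lower at 12h than at 6h for 7 members. The share of all genes with this pattern is not given here, so the count has no background to be read against. Without WT mice 1 and 4, 5 members fell from 6h to 12h in WT cells (background 20.6%) and 6 rose from 12h to 24h (21.1% of genes higher), while Ddit3 fell. From 2h to 6h that fit gave 1 and 3 members higher and lower in WT (51.3%) and 1 and 2 in KO cells (58.8%).

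KO and WT cells were then compared at each time, to ask whether the response differed by genotype. At 6h KO cells had more Sesn2 and Trib3 mRNA than WT cells. Sesn2 was 43.2 to 54 CPM in KO and 15.4 to 22.7 CPM in WT mice, and Trib3 was 10.2 to 23.2 CPM in KO and 6.04 to 7.92 CPM in WT mice, with no overlap for either gene. The log2 difference was 1.35 (SE 0.326, adjusted p = 0.0131) for Sesn2 and 1.08 (SE 0.344, adjusted p = 0.0394) for Trib3. When WT mice 1 and 4 were left out, it was 1.30 (adjusted p = 0.00218) and 0.99 (adjusted p = 0.101). The Sesn2 call was lost without WT mouse 4 or KO mouse 1, 3 or 4, with adjusted p of 0.0538 to 0.0655, and the Trib3 call without WT mouse 1, 4 or 5 or any 1 KO mouse, with adjusted p of 0.0527 to 0.119.

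Across the 10 members, 0 were called at 0h (background 7.93%), 0 at 2h (11.8%), 2 higher at 6h (10.1%), 1 lower at 12h (13.1%) and 0 at 24h (0.0451%). DESeq2 called 0 members at 0h and 0 at 24h. It called Chac1 and Nupr1 at 2h (16.2% of genes), Chac1, Trib3, Sesn2 and Nupr1 at 6h (15.8%), and Chac1 and Ddit4 at 12h (17.6%). The unadjusted edgeR p was under 0.05 for 2 members at 0h, 3 at 2h and 3 at 24h. The shares above are for the adjusted p and are no background for these unadjusted counts. The single 12h call of edgeR with all mice was Ddit4, at -1.45 (adjusted p = 0.05), which is under the threshold before rounding. It rested on WT mice 1 and 4, and without them the difference was 0.43 (adjusted p = 0.0701), and 0.43 (adjusted p = 0.0251) with only the libraries of that time, so the sign turned. It was also lost without WT mouse 1 or 4 or any 1 KO mouse (adjusted p of 0.0962 to 0.219), and in limma-voom it was -0.79 (adjusted p = 0.377). DESeq2 with all mice called Ddit4 at 12h, at -1.44 (adjusted p = 0.0253). Sesn2 at 12h was 0.61 (adjusted p = 0.203) in edgeR but was called in limma-voom, 0.99 (adjusted p = 0.0421), also with the mouse as a random block, 0.98 (adjusted p = 0.035). The median difference over the members was -0.07, 0.21, 0.46, 0.18 and 0.47 at the 5 times, beside -0.15, -0.07, -0.04, -0.10 and 0.00 over all genes.

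By range alone, the libraries of the genotypes did not overlap for some members. Every KO library exceeded every WT library for Chac1 at 2h, where this held for 3.5% of genes, for Chac1, Trib3 and Sesn2 at 6h (5.5%) and for Atf4 and Asns at 24h (2.95%). Every KO library was below every WT library for Ddit3 at 12h (11.4%), with 16, 16.4, 17.8, 15.7 and 14.1 CPM in KO and 25.9, 23.3, 20.5, 26.5 and 26.6 CPM in WT mice. In edgeR with all mice none of these differences except those of Trib3 and Sesn2 passed the test. The log2 difference was 1.48 (adjusted p = 0.067) for Chac1 at 2h and 1.55 (adjusted p = 0.0607) at 6h, -0.62 (adjusted p = 0.17) for Ddit3 at 12h, and 0.32 (adjusted p = 0.792) for Atf4 and 1.08 (adjusted p = 0.809) for Asns at 24h. Chac1 passed the threshold in DESeq2, at 1.52 (adjusted p = 0.00802) at 2h and 1.55 (adjusted p = 0.00679) at 6h, and in limma-voom, at 1.48 (adjusted p = 0.0166) and 1.44 (adjusted p = 0.0338). The limma-voom values with the mouse as a random block were 1.48 (adjusted p = 0.021) and 1.43 (adjusted p = 0.0385). At 6h Chac1 passed also in edgeR without WT mouse 3 (adjusted p = 0.0265). Ddit3 passed it without WT mouse 3 (adjusted p = 0.00891).

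Leaving out WT mice 1 and 4 moved the calls to other members and times. At 0h Asns was higher in KO cells by 2.71 (SE 0.39, adjusted p = 4.23e-05) and Ddit3 lower by 0.88 (adjusted p = 0.0188), with 22.4% of genes called. The Asns difference at 0h was not called when only the 8 libraries of that time were fitted (adjusted p = 0.196), and the Ddit3 difference turned to 0.56 (adjusted p = 0.0377) with all mice but WT mouse 3. At 2h Asns alone was called, 1.89 (adjusted p = 0.0036) (4.1% of genes). With only the 8 libraries of 2h in the fit, Asns was not called, 1.93 (adjusted p = 0.0836), and Chac1 was, 1.78 (adjusted p = 0.031). At 6h Sesn2 and Ddit4 were called, the latter 0.86 (adjusted p = 0.00386) (4.16% of genes). At 12h Sesn2 was higher in KO cells by 1.83 (adjusted p = 1.64e-05), Chac1 by 2.16 (adjusted p = 0.00965), Trib3 by 1.14 (adjusted p = 0.0229) and Atf5 by 0.96 (adjusted p = 0.0126), where 13.9% of genes were called higher. At 24h 0 members were called (0.0453% of genes), and with only the 8 libraries of that time 3 were.

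Markers of B cells, cells that anti-CD8a beads should not hold, were higher in many KO libraries. The sum over Cd79a, Cd79b, Ms4a1, Pax5 and Ighm, all 5 detected in every group, was 379 to 3299 CPM in WT and 2731 to 6186 CPM in KO mice at 0h, and 620.4 to 1514 and 1297 to 2658 CPM at 6h. The sums at 12h were 439.5 to 827 in WT and 739.7 to 1375 CPM in KO mice, and those at 24h 404 to 557 and 508 to 599.6 CPM. The 6h sum over WT mice 2, 3 and 5 alone was 923 to 1514 CPM, and the 12h sum 549.7 to 827 CPM. The B cell sum of the 2h libraries spanned 351.6 to 2093 CPM in WT mice. In KO mice it spanned 1825 to 4571 CPM, so the ranges overlapped. WT mice 2, 3 and 5 alone spanned 1393 to 2093 CPM then. The part of these cells in the differences of Sesn2, Trib3 and Chac1 was not tested.

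**Figure D3:**
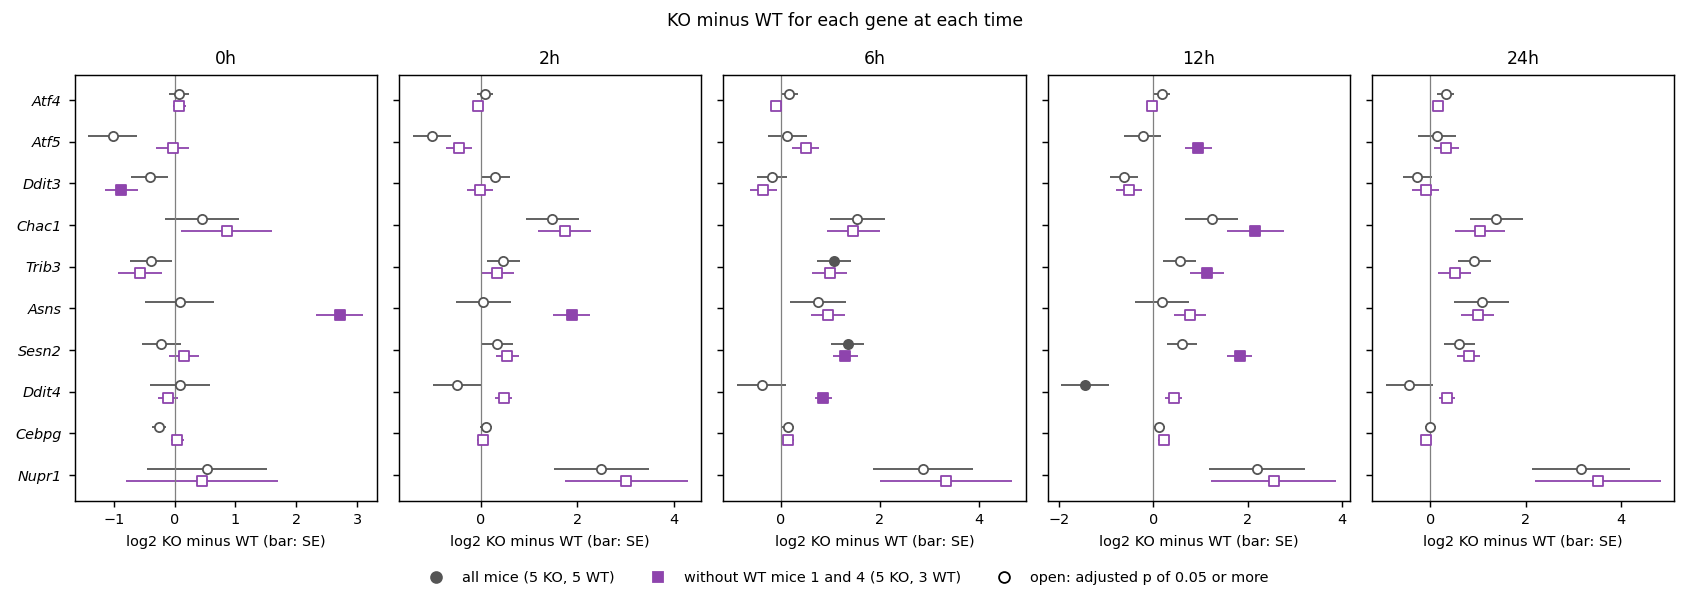
Log2 difference of KO minus WT for each member at the 5 times, as points with bars of 1 standard error, for all mice and without WT mice 1 and 4; open symbols have an adjusted p of 0.05 or more. Sesn2 at 6h lies at 1.35 with all mice and 1.30 without the 2, and Ddit4 at 12h crosses from -1.45 to 0.43.

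Whether the change from 0h itself differed between genotypes was tested as an interaction. With all mice 0 of 10 members passed the test at 2, 6, 12 or 24h, where 0.015%, 2.47%, 7.5% and 0.0752% of genes did. The unadjusted p was under 0.05 for 1, 4, 2 and 2 members. Those shares are for the adjusted p, and the share of all genes at the unadjusted threshold is not given here. DESeq2 called 1 member, Sesn2, at 6h and 0, 0 and 0 at 2, 12 and 24h. The largest test value was that of Sesn2 at 6h, where the KO change exceeded the WT change by 1.57 (SE 0.458, adjusted p = 0.0515), and by 1.48 (adjusted p = 0.0176) with mouse as a block. Fitted without WT mice 1 and 4, the KO change at 6h was larger for Trib3 by 1.55 (adjusted p = 0.0445), Sesn2 by 1.15 (adjusted p = 0.031) and Ddit4 by 0.97 (adjusted p = 0.0114), and smaller for Asns, -1.76 (adjusted p = 0.0221) (9.56% of genes called). At 12h the same fit gave 1.70 (adjusted p = 0.0158) for Trib3, 1.68 (adjusted p = 0.000802) for Sesn2 and -1.93 (adjusted p = 0.00492) for Asns (20.5% of genes). Atf4 gave values from -0.18 to 0.08 in this fit, none of them called. With all mice the sign was the opposite for Ddit4 at 6h, -0.48, and for Asns, 0.66 at 6h and 0.10 at 12h. Trib3 and Sesn2 had the same sign in both fits at 6h and 12h. With the mouse as a block and all mice, 2 members were called at 6h (5.07% of genes), Sesn2 and Trib3, the latter 1.48 (adjusted p = 0.047).

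Across the 10 group means, the members did not move as 1 block. Pearson's r of log2 CPM was 0.954 between Chac1 and Sesn2, 0.949 between Atf4 and Chac1, 0.946 between Chac1 and Trib3 and 0.912 between Trib3 and Sesn2. It was -0.77 between Ddit3 and Asns and -0.755 between Atf4 and Ddit4. The 10 points share the same time course and libraries, so these values describe the order of the group means and carry no test. The means hold every mouse, including the WT mice with high immature thymocyte sums. Without those mice, mean Asns in WT cells at 0h was 3.993 CPM instead of 24.67. Mean Ddit4 in WT cells at 12h was then 15.39 CPM instead of 55.09. For Sesn2 and Chac1 in WT cells at 12h, the means were 7.194 instead of 16.33 CPM and 0.4711 instead of 0.8753 CPM. Mean Ddit3 in WT cells at 0h, 38.05 CPM, includes 113 CPM in mouse 3. How far r depends on these libraries was not tested.

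The genes whose group means were most like those of a member, among genes whose mean reached 5 CPM over all libraries, are given by r over the 10 group means of log2 CPM and differed from member to member. For Atf4 they were Atf3 (r = 0.983), Egr3 (0.98) and Nr4a2 (0.98), and for Chac1 they were Vegfa (0.978), Ppp2r3a (0.964) and Kdm2b (0.958). For Ddit3 they were Epc1 (0.989), Tnfrsf26 (0.988) and Elk4 (0.986). Those of Trib3, Sesn2 and Cebpg were led by Nmt2 (0.975), Tent4a (0.965) and Wapl (0.974). Asns was most like Spryd7 (0.958) and Ddit4 most like Rbm43 (0.975), while for Atf5 and Nupr1 the closest genes, Raly (0.897) and Arl8a (0.892), were less alike. These group means also hold every mouse, so the same limit applies to the genes listed for every member.

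Upstream of ATF4, PERK mRNA rose at 2h. Of 13 genes for eIF2 kinases, eIF2 and its exchange factor and phosphatase, the counts higher and lower were 3 and 2 at 2h, 4 and 2 at 6h, 4 and 1 at 12h and 7 and 1 at 24h in WT cells, and 4 and 1 at 2h, 8 and 0 at 6h, 10 and 2 at 12h and 9 and 1 at 24h in KO cells. Among all genes tested, the shares called higher at these 4 times were 14%, 20.2%, 19.3% and 19.9% in WT and 20.3%, 26.8%, 27.8% and 30.7% in KO cells. These shares apply to each list below in the fit with all mice. Eif2ak3, which encodes the endoplasmic reticulum kinase PERK, went from 45 ± 20.6 to 194 ± 36.4 CPM (SD, n = 5) at 2h in WT cells and from 36.3 ± 10.1 to 178 ± 18.8 CPM in KO cells. Its log2 change at 2h was 2.11 (adjusted p = 7.66e-05) in WT and 2.30 (adjusted p = 1.24e-05) in KO cells, and at 6h it was 0.32 (adjusted p = 0.553) and -0.16 (adjusted p = 0.743). Eif2ak4, which encodes the amino acid sensor GCN2, rose in KO cells by 0.53 at 2h and 1.04 at 24h (adjusted p = 0.0317 and 3.32e-05), and in WT cells by 0.85 (adjusted p = 0.00072) at 24h. Eif2ak2, which encodes the double-stranded RNA sensor PKR, fell in KO cells at 12h, -1.61 (adjusted p = 0.0016). Ppp1r15a, which encodes the stress-induced eIF2 phosphatase subunit GADD34 and is named here after its values were seen, fell by 24h, -1.38 (adjusted p = 0.00166) in WT and -2.23 (adjusted p = 2.47e-06) in KO cells. Eif2ak1 was not analysed here.

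Of 14 genes of amino acid and folate synthesis, which ATF4 is known to serve, 2 were higher and 4 lower at 2h in KO cells, and 11, 11 and 13 were higher at 6, 12 and 24h with 0 lower. In WT cells 1, 6, 7 and 11 were higher at the 4 times with all mice. Without mice 1 and 4 the counts were 3, 12, 13 and 13. That fit called 49.7%, 59.8%, 60.2% and 64.6% of all genes in either direction, so the shares given above do not apply to it. The median log2 change in KO cells was -0.20 at 2h and 2.04 at 24h. Cth, which makes cysteine from cystathionine, was 0.345 ± 0.402 CPM at 0h and 35 ± 13.2 CPM (SD, n = 5) at 24h in KO cells, a change of 6.59 (adjusted p = 4.52e-09). The mitochondrial folate enzyme gene Mthfd2 changed by 2.91 (adjusted p = 1.91e-08) and the serine to glycine enzyme gene Shmt2 by 2.00 (adjusted p = 6.27e-07) over the same time.

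Of 10 amino acid transporter genes, 8, 9, 9 and 9 were higher at 2, 6, 12 and 24h in KO cells and 5, 8, 7 and 7 in WT cells, with 0 lower in any of these. The 2h shares in KO and WT cells are to be read beside the 20.3% and 14% of all genes called higher then. Slc38a2, a glutamine and alanine carrier, at 2h was at 737 ± 120.5 CPM in WT and 913 ± 49.3 CPM (SD, n = 5) in KO cells, changes of 1.51 (adjusted p = 5.28e-12) and 1.99 (adjusted p = 1.5e-15). The arginine and lysine carrier gene Slc7a1 changed by 2.80 (adjusted p = 1.01e-09) and the large neutral amino acid carrier gene Slc7a5 by 2.72 (adjusted p = 3.58e-08) at 6h in KO cells. Of 13 genes for transfer RNA charging and export, 5 were higher at 2h and 13 at each later time in KO cells. In WT cells 1, 7, 10 and 12 were higher, and 2 were lower at 2h. Cars, the cysteine enzyme, rose in KO cells at 2h by 1.46 (adjusted p = 6.31e-07), and Wars, the tryptophan enzyme, was -0.40 (adjusted p = 0.151) then and rose at 6h by 2.06 (adjusted p = 2.2e-09).

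Of 16 genes of the IRE1 and ATF6 arms of the unfolded protein response, 8 were higher and 0 lower at 6h in WT cells and 9 and 2 in KO cells, with the chaperone gene Hspa5 at 1.95 (adjusted p = 4.01e-10) and 1.75 (adjusted p = 2.51e-09). Of 10 mitochondrial stress genes, 1 was higher and 3 lower at 2h and 8 higher and 0 lower at 24h in KO cells. Of 14 further ATF4 targets that passed the filter, from 17 listed, 8 were higher and 1 lower at 2h in KO cells and 4 higher and 4 lower at 24h. Bcl2l11, which encodes the death protein BIM, changed by 2.35 (adjusted p = 3.64e-10) in WT and 2.81 (adjusted p = 2.89e-12) in KO cells at 2h. Among 13 bZIP relatives, 4 were higher and 5 lower at 12h in KO cells, and Atf3 went from 0.151 ± 0.19 CPM at 0h to 157 ± 31.2 CPM (SD, n = 5) at 2h.

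Of 11 tested genes for other sestrins, REDD relatives and brakes on mTORC1, 3 were higher and 7 lower at 24h in KO cells, and 0 and 3 in WT cells. Sesn1 fell at 24h by 1.87 in KO and 1.33 in WT cells (adjusted p = 1.13e-05 and 0.00125), while Sesn2 rose. Of 7 tested paralogs, 2 were higher and 4 lower at 24h in KO cells. Trib1 rose at 24h by 3.03 (adjusted p = 1.08e-05) in KO cells, Trib2 fell by 3.47 (adjusted p = 7.77e-07) and Chac2 rose by 1.05 (adjusted p = 0.000375).

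**Figure D4:**
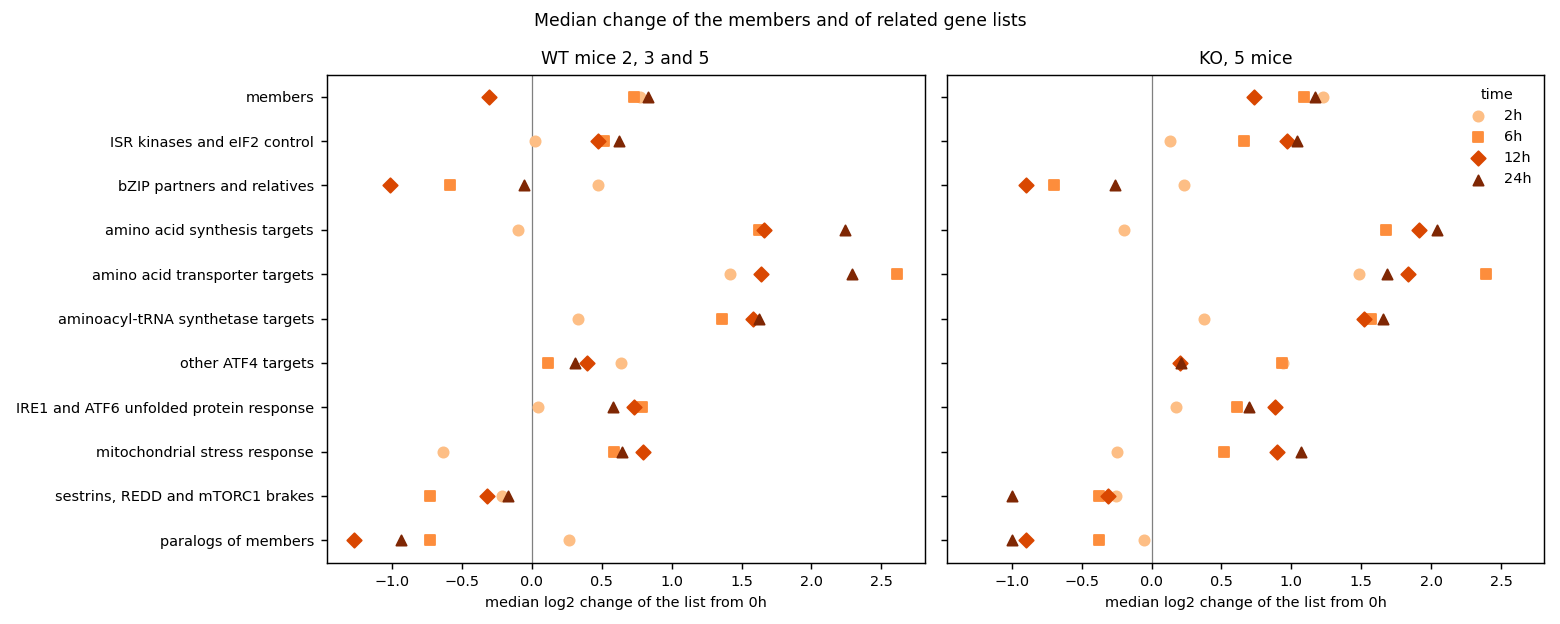
Median log2 change from 0h of the 10 members and of 10 related gene lists at 2, 6, 12 and 24h, for WT mice 2, 3 and 5 and for the 5 KO mice; the vertical line marks no change. The members are among the highest medians at 2h, at 0.77 and 1.23, and the amino acid synthesis list is at -0.10 and -0.20 then and at 2.24 and 2.04 at 24h.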

How the data were processed

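mRNA of CD8+ T cells was sequenced in 50 libraries as 50-nt single-end reads from a stranded kit, per the labels' protocols. The authors deposited raw read counts per Ensembl gene. The build GRCm38 and the tools featureCounts 1.4.6, STAR 2.4 and CASAVA 1.8.2 are listed, without roles, in the submitters' processing notes. The annotation release, the strand setting and the treatment of multi-mapping reads are not given in the sources used here. From the counts, genes were kept by filterByExpr (minimum count 10, minimum total 15, smallest group 5), which left 13294 genes. They were scaled by TMM and fitted with edgeR 4.0.16 (R 4.3.3) by its quasi-likelihood test with 1 mean per group over all 50 libraries. P-values were adjusted by Benjamini-Hochberg over all genes, and a call is an adjusted p under 0.05. The common dispersion was 0.214, with 40 residual degrees of freedom.

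CPM values were computed with TMM-scaled library sizes, and levels per kilobase with the exon length in GENCODE M21. Symbols were found for 21583 of 21647 genes. The smallest library had 9571625 counts, so a gene at 1 CPM rests on about 10 counts there. No replicates were identical, and the highest Spearman correlation between replicates was 0.982. Alternatives were library totals as scale, DESeq2 1.42.0, limma-voom (limma 3.58.1), no filter, only the libraries compared, the mouse as a block, and each mouse left out. A fit without WT mice 1 and 4 (13253 genes) was added after seeing the data. The mouse number is the same animal over time per the labels. Deviations of a mouse's libraries from the group means correlated at a mean of 0.415 to 0.638 in WT and 0.212 to 0.356 in KO mice. Libraries of different mice were not compared in this way, and WT mice 1 and 4 shift the WT group means. These correlations therefore do not test the pairing. Every member was named, and from each list up to 5 genes with the smallest adjusted p and all eIF2 kinases could be named. The members and lists were chosen with earlier results of these data known. The edgeR fit without a block was tested on simulated counts with independent libraries and a lower dispersion than that of the data. The block, DESeq2 and limma-voom fits were not tested in that way. The gene targeted in the KO mice and 1 listed B cell marker are not reported, and the counts of the targeted gene were not used to check the labels.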

Additional observations from a re-analysis of the deposited data

Results flagged for a closer look

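Of 100 sets of 5 libraries, 1 for each member, genotype and time, 13 had 1 library far from the others, by a gap over 0.71 of the whole range. For 5 independent normal values chance gives about 1 in 20. The sets here share libraries and hold raw CPM, some of it close to the detection limit, so that rate need not hold for them. At 24h WT mouse 1 stood apart for 4 members. Atf4 in WT cells at 24h was 222 CPM in mouse 1 and 413 to 457 CPM in the other 4 mice. Asns in WT cells at 24h was 19.3 CPM in mouse 1 and 27.8 to 30.2 CPM in the other 4 mice. Sesn2 in WT cells at 24h was 32.9 CPM in mouse 1 and 18.8 to 20.7 CPM in the other 4 mice. Ddit4 in WT cells at 24h was 109.5 CPM in mouse 1 and 24.5 to 35.8 CPM in the other 4 mice. In this library the summed level of 12 myeloid and dendritic cell markers was 114 CPM, beside 5.03 to 32.7 CPM at 24h in WT mice 2 to 5. The immature thymocyte sum was 217.5 CPM beside 11.23 to 47.05, and the CD4 T cell sum 79.13 beside 9.775 to 23.03. The erythroid and platelet sum was 32.57 CPM beside 2.388 to 16.26. Lower than in those mice were the sums of mature T cell surface genes, 845.1 CPM beside 1137 to 1679, and of G2 and mitosis genes, 2431 beside 3187 to 4073. The part of these differences in the values above was not tested. The libraries numbered 3, which come from different animals in WT and KO, were the highest for 8 sets. Atf5 in KO cells at 0h was 18.3 CPM in mouse 3 and 6.41 to 9.56 CPM in the other 4 mice. Ddit3 in WT cells at 0h was 113 CPM in mouse 3 and 15.4 to 22.9 CPM in the other 4 mice. Trib3 in WT cells at 0h was 4.62 CPM in mouse 3 and 2.08 to 2.72 CPM in the other 4 mice. Trib3 in KO cells at 0h was 4.56 CPM in mouse 3 and 1.46 to 1.91 CPM in the other 4 mice. Nupr1 in WT cells at 0h was 1.16 CPM in mouse 3 and 0.0778 to 0.376 CPM in the other 4 mice. The 0h libraries of these mice had the highest shares of counts in their 50 most abundant genes, 23.8% and 14.8%. Ddit3 in KO cells at 6h was 30.8 CPM in mouse 3 and 24.5 to 26 CPM in the other 4 mice. Chac1 in KO cells at 6h was 12.4 CPM in mouse 3 and 5.02 to 5.67 CPM in the other 4 mice. Trib3 in KO cells at 24h was 15.1 CPM in mouse 3 and 7.34 to 9.44 CPM in the other 4 mice. Nupr1 in KO cells at 0h was 2.21 CPM in mouse 1 and 0 to 0.166 CPM in the other 4 mice.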

How the results depend on the processing

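Of the 50 member calls, 49 kept their direction and call in DESeq2, 48 with library totals, 49 in limma-voom, 45 with no filter, 40 of 49 with only the libraries compared, 47 of 47 with the mouse as a replicate block and 47 without WT mice 1 and 4. In all 10 fits that left out 1 mouse, 38 kept it. The block could not be fitted for KO against WT, since each mouse has 1 genotype, and there the mouse was a random block in limma-voom. The cause of the changes below was not tested. Depth limits Chac1 at 0h and Nupr1 in WT cells, which rest on few counts. Beside each number of members called below stands, in parentheses, the share of all genes tested that the same fit called for the same comparison. With only the libraries compared the number of members called was 3 for WT 2h against 0h (2.46%), 1 for WT 12h against 0h (10.7%), 0 for WT 6h against 2h (9.43%), 5 for KO 6h against 2h (69.7%), 8 for KO 12h against 6h (49.1%), 6 for KO 24h against 12h (66.9%), 1 for KO against WT at 6h (0.44%) and 1 for KO against WT at 24h (0.182%). With the mouse as a replicate block the number of members called was 5 for WT 6h against 0h (47.8%), 7 for WT 24h against 0h (55%), 8 for KO 6h against 0h (58.9%), 4 for KO 12h against 6h (9.19%) and 2 for the KO minus WT response at 6h (5.07%). Without WT mice 1 and 4 the number of members called was 7 for WT 6h against 0h (59.8%), 4 for WT 12h against 0h (60.2%), 8 for WT 24h against 0h (64.6%), 5 for WT 12h against 6h (20.6%), 7 for WT 24h against 12h (36.4%), 6 for KO 12h against 6h (23.4%), 4 for KO 24h against 12h (31.4%), 2 for KO against WT at 0h (22.4%), 1 for KO against WT at 2h (4.1%), 4 for KO against WT at 12h (23%), 4 for the KO minus WT response at 6h (9.56%) and 3 for the KO minus WT response at 12h (20.5%). In DESeq2 the number of members called was 2 for KO 12h against 6h (5.42%), 2 for KO against WT at 2h (16.2%), 4 for KO against WT at 6h (15.8%), 2 for KO against WT at 12h (17.6%) and 1 for the KO minus WT response at 6h (5.38%). In limma-voom the number of members called was 3 for KO 12h against 6h (3.5%) and 1 for KO against WT at 2h (5.48%). In limma-voom with the mouse as a random replicate block the number of members called was 1 for KO against WT at 2h (7.45%). Without WT mice 1 and 4 and with only the libraries compared the number of members called was 1 for KO against WT at 2h (0.157%), 7 for KO against WT at 6h (15%), 8 for KO against WT at 12h (53.3%) and 3 for KO against WT at 24h (5.24%). With no filter on low counts the number of members called was 1 for KO against WT at 6h (4.46%) and 0 for KO against WT at 12h (6.45%). In limma-voom these log2 values changed sign: Atf5 0.11 for KO against WT at 12h, Ddit3 0.0634 for WT 12h against 0h, Ddit3 0.26 for KO against WT at 0h, Asns 0.85 for WT 6h against 0h, Asns -0.15 for the KO minus WT response at 6h, Asns -0.63 for the KO minus WT response at 12h and Ddit4 0.0727 for WT 24h against 12h. In limma-voom with the mouse as a random replicate block these log2 values changed sign: Atf5 0.10 for KO against WT at 12h and Ddit3 0.26 for KO against WT at 0h. Without WT mice 1 and 4 these log2 values changed sign: Atf5 0.96 for KO against WT at 12h, Asns 2.32 for WT 6h against 0h, Asns -1.76 for the KO minus WT response at 6h, Asns -1.93 for the KO minus WT response at 12h, Ddit4 0.79 for WT 24h against 12h, Ddit4 0.86 for KO against WT at 6h, Ddit4 0.43 for KO against WT at 12h, Ddit4 0.97 for the KO minus WT response at 6h and Cebpg 0.31 for WT 24h against 0h. Without WT mice 1 and 4 and with only the libraries compared these log2 values changed sign: Atf5 0.96 for KO against WT at 12h, Ddit4 0.88 for KO against WT at 6h and Ddit4 0.43 for KO against WT at 12h. With the mouse as a replicate block these log2 values changed sign: Asns 0.72 for WT 6h against 0h, Asns -0.0804 for the KO minus WT response at 6h, Asns -0.50 for the KO minus WT response at 12h, Ddit4 0.0081 for WT 24h against 12h and Ddit4 0.22 for the KO minus WT response at 6h. With library totals these log2 values changed sign: Asns -0.0651 for KO against WT at 2h and Asns -0.0846 for the KO minus WT response at 12h. With 1 mouse left out in turn, the number of members called ranged from 3 to 5 for WT 6h against 0h (31.2 to 47.3%), 2 to 4 for WT 12h against 0h (29.4 to 48.4%), 0 to 1 for WT 12h against 6h (0.104 to 4.8%), 0 to 3 for WT 24h against 12h (5.63 to 23.2%), 0 to 3 for KO 12h against 6h (0.395 to 8.54%), 0 to 1 for KO 24h against 12h (2.8 to 17.1%), 0 to 1 for KO against WT at 0h (1.2 to 18%), 0 to 1 for KO against WT at 2h (0.763 to 21.6%), 0 to 4 for KO against WT at 6h (0.268 to 25.6%), 0 to 2 for KO against WT at 12h (4.15 to 24%), 0 to 1 for the KO minus WT response at 6h (0 to 10.8%) and 0 to 1 for the KO minus WT response at 12h (3.76 to 16.7%). Log2 values that changed sign in at least 1 of these fits ranged from Atf5 -0.0002 to 0.51 for WT 24h against 12h, Atf5 -0.43 to 0.23 for KO against WT at 12h, Ddit3 -0.91 to 0.38 for WT 12h against 0h, Ddit3 -0.62 to 0.56 for KO against WT at 0h, Trib3 -0.21 to 0.80 for WT 24h against 12h, Asns -0.32 to 0.41 for WT 6h against 0h, Asns -0.01 to 0.53 for WT 12h against 0h, Asns -0.18 to 0.77 for WT 24h against 0h, Asns -0.29 to 0.65 for KO against WT at 0h, Asns -0.19 to 0.59 for KO against WT at 2h, Asns -0.28 to 0.41 for the KO minus WT response at 12h, Sesn2 -0.69 to 0.0414 for WT 12h against 6h, Ddit4 -0.22 to 0.0166 for WT 12h against 6h, Ddit4 -0.59 to 0.16 for KO against WT at 6h, Ddit4 -0.82 to 0.17 for the KO minus WT response at 6h and Cebpg -0.20 to 0.0644 for WT 24h against 0h.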
